A study of Mus musculus with 60 samples.

Results

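The genes described here encode voltage-gated sodium channels, voltage-gated calcium channels, hyperpolarization-activated (HCN) channels and transient receptor potential channels of the C and M subfamilies, with their auxiliary subunits. Members were taken by symbol: Scn with a number (except Scn7a, a family member that is not gated by voltage), Cacn, Hcn with a number, and Trpc or Trpm with a number. Of 51 such genes with a probe set of their own, 39 were members because their log2 intensity reached 4 in at least 6 of the 60 arrays, out of 11886 genes that met the same minimum. The rule used no difference between groups. It also took in Trpc4ap, which encodes a protein that associates with TRPC4 and is not a channel itself. The arrays held cortex of male mice of 30 inbred strains, aged 10 to 11 weeks. In each strain 1 array came from mice given fluoxetine by mouth at 18 mg/kg per day for 21 days, and 1 array from mice that received water without the drug (0 mg/kg) over the same time. Mice of both groups had been through tail-suspension and open field tests before the tissue was taken, and each array carried RNA pooled from 3 mice of 1 strain and treatment. Fluoxetine, an antidepressant, inhibits the serotonin transporter. The strains were C58/J, BALB/cJ, C57BL/6J, SWR/J, C57BR/cdJ, A/J, C57BLKS/J, SJL/J, CBA/J, AKR/J, FVB/NJ, C3H/HeJ, DBA/2J, NZW/LacJ, CE/J, NOR/LtJ, 129S1/SvImJ, NZB/BlNJ, LP/J, NOD/LtJ, I/LnJ, BTBRT T(+) tf/J, LG/J, BUB/BnJ, P/J, MA/MyJ, SM/J, MRL/MpJ, RIIIS/J and PL/J.

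Voltage-gated sodium channels open on depolarization and carry the rising phase of the action potential. Their pore is the alpha subunit, and beta subunits tune gating and help to anchor the channel. Calcium channels turn depolarization into calcium entry: alpha1 subunits form the pore, alpha2delta and beta subunits set trafficking and gating, and several of the proteins named gamma subunits act in brain mainly as auxiliary subunits of AMPA glutamate receptors. HCN channels open on hyperpolarization and carry the pacemaker current of neurons. TRPC and TRPM channels are cation channels, many of them opened by receptor signalling, lipids, calcium, temperature or oxidative stress.

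All values are log2 intensities, computed from the deposited GCRMA intensities, and a difference is fluoxetine minus water on that scale. The level of a probe set depends on its probes, so levels were not compared between genes. In a pool of whole cortex, fewer cells of a type and less RNA per cell cannot be told apart. The median linear intensity of an array lay between 39.1 and 43.1. Markers of excitatory neurons were present, with 5 of 5 measured markers above the minimum and a summed linear intensity of 27613 to 35920 over the fluoxetine arrays and 26561 to 35160 over the water arrays. The arrays of P/J stood apart most clearly in thalamus and microglia markers. The summed intensity of 8 thalamus markers was 2066 in the P/J fluoxetine array and 4796 in the P/J water array, a log2 ratio of -1.22, whereas the ratios of the other strains ran from -0.37 to 0.55. For 7 microglia markers the P/J ratio was 0.56 (others -0.20 to 0.28). For 7 astrocyte markers it also lay outside the other strains, by less (0.23, others -0.065 to 0.15). The P/J ratio lay only just beyond the other strains for 7 oligodendrocyte markers (-0.68, others -0.67 to 0.35). The same held for 5 hippocampus markers, 3 of them above the minimum (0.83, others -0.34 to 0.78). P/J was not the only strain with an unusual array. The summed intensity of 6 choroid plexus markers, 2 of them above the minimum, was 35087 in the C57BR/cdJ water array. The median over water arrays was 195. Strain calls that changed without P/J, and the fluoxetine estimates of Cacna1g, Scn1a and Scn4b, are given with and without P/J.

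Promoter sequences are shown for 4 members: Scn2b, Cacng6 and Trpc2, whose strain differences were the most repeatable of all members, and Scn4b, which lies next to Scn2b and had the lowest fluoxetine estimate. Each run is the 250 bases before the annotated start of the gene in RefSeq (GRCm38.p6, a C57BL/6J reference), on the plus strand, 5′ to 3′. The Scn2b window is chr9:45117626-45117875, the Scn4b window chr9:45138374-45138623, the Cacng6 window chr7:3424412-3424661 and the Trpc2 window chr7:102082866-102083115. Capitals mark matches, on either strand, to 5 motifs that were searched: the TATA box as TATAAA, the CCAAT box by its name, the GC box as GGGCGG, the cyclic AMP response element as TGACGTCA and the E-box as CACGTG.
Scn2b: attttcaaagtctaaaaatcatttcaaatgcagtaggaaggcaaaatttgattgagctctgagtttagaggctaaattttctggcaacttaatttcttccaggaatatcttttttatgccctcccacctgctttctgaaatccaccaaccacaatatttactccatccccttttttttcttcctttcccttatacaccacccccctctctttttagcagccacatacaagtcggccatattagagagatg
Scn4b: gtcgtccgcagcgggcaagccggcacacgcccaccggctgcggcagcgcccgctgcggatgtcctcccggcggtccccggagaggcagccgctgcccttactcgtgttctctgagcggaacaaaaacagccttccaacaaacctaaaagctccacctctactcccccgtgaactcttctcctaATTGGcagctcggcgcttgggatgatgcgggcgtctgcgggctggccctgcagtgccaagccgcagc
Cacng6: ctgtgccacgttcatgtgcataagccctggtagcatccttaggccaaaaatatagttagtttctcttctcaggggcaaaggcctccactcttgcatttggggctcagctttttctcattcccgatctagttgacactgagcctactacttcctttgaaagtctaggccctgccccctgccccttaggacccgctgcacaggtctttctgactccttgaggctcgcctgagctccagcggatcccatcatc
Trpc2: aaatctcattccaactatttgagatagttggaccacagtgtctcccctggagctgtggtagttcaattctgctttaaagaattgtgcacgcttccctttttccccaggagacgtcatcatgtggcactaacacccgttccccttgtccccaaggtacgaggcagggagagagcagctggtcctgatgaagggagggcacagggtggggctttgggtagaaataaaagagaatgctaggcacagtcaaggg
Scn2b had 38.4% G and C in this window, Scn4b 66.0%, Cacng6 52.8% and Trpc2 50.8%. Scn4b held 1 CCAAT match (written ATTGG, on the minus strand), and the other 3 windows held none of the 5 motifs. A window was found for 31 of 39 members. CCAAT was present in a window of 8 members and in 33.8% of all 32851 windows of this kind, GGGCGG in windows of 14 members and 32.7% of all windows, and TATAAA in windows of 4 members (Cacna1d, Scn2a, Trpc4 and Trpm2) and 12.4% of all windows. The E-box was present for Trpm7 alone and in 6.02% of all windows, and the cyclic AMP response element for 0 members and in 1.55% of all windows. A match describes the letters only.

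With fluoxetine, none of the channel genes passed the threshold. Of 39 members, 0 had an adjusted p under 0.05 (limma with strain as a block, Benjamini-Hochberg over all 11886 genes, of which 0.0589% passed). Without adjustment, 5 of 39 members (12.8%) had a p under 0.05, against 15.3% of all genes: 1 was higher with fluoxetine (Cacna1g; background 7.3%) and 4 were lower (Scn1a, Scn3b, Scn4b and Cacnb2; background 8%). The differences of the members were positive for 16 and negative for 23, with a median of -0.0096, against -0.0029 over all genes. Their absolute size had a median of 0.031, against 0.026 over all genes. The share with a low unadjusted p was therefore no higher than that of other cortical genes. The plot of differences by member shows how narrow most of the intervals were.

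**Figure D1:**
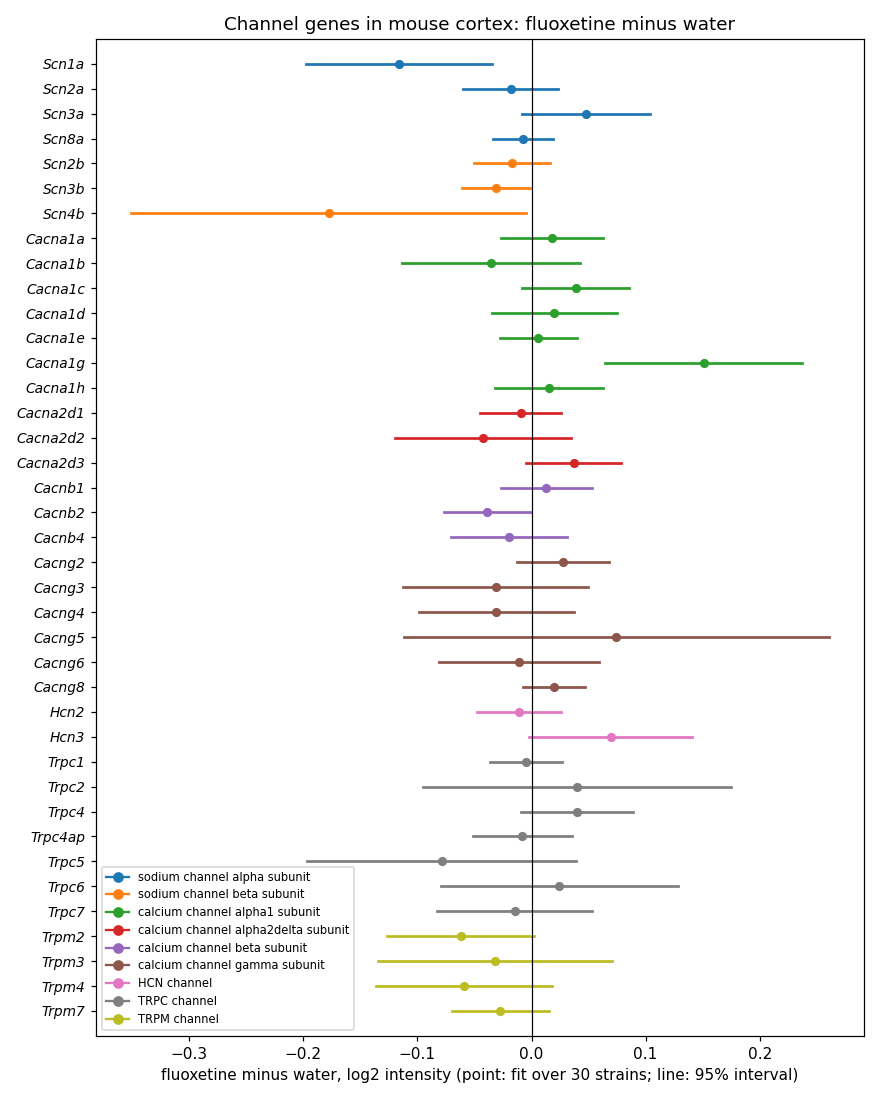
Fluoxetine minus water in log2 intensity (x axis) for each of the 39 members (y axis, coloured by role); points are the limma estimates over 30 strains and lines their 95% intervals. Estimates run from -0.18 (Scn4b) to 0.15 (Cacna1g), and most intervals cross 0.

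Among sodium channel alpha subunits, Scn1a (NaV1.1, the main sodium channel of parvalbumin interneurons) had a difference of -0.12 (SE 0.040, adjusted p = 0.157 by limma), or -7.72% on the linear scale. Its fluoxetine arrays ran from 11.80 in P/J through a median of 12.36 to 12.75 in BUB/BnJ, and its water arrays from 12.16 in RIIIS/J through 12.45 to 12.68 in NZW/LacJ. The groups overlapped, the fluoxetine arrays reached lower, and the value was lower with fluoxetine in 21 of 30 strains. The within-strain differences ran from -0.67 in P/J to 0.37 in BUB/BnJ. The other probe sets of Scn1a that passed the minimum had differences of -0.17 (lower in 24 of 30 strains; limma adjusted p = 0.104 over 21631 probe sets) and -0.17 (lower in 19 strains; adjusted p = 0.148). Every one of the 3 probe sets was thus lower on average with fluoxetine, and none passed the threshold. Without P/J the difference of the brightest probe set was -0.097. Over the leave-one-strain-out fits it stayed between -0.13 and -0.097.

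Scn2a (NaV1.2, the main sodium channel of cortical excitatory neurons early in life) had 14.03 in DBA/2J to 14.52 in SJL/J with a median of 14.33 in fluoxetine arrays, and 14.18 in C57BR/cdJ to 14.62 in FVB/NJ with a median of 14.34 in water arrays. Its difference was -0.018 (95% interval -0.060 to 0.023). Scn8a (NaV1.6, the channel of the axon initial segment and nodes of Ranvier) ran from 12.81 in I/LnJ to 13.28 in BTBRT T(+) tf/J in fluoxetine arrays and from 12.84 in 129S1/SvImJ to 13.18 in BTBRT T(+) tf/J in water arrays, with a median of 13.01 in both. Its difference was -0.0073 (95% interval -0.034 to 0.019), among the tightest intervals of all members. Scn3a (NaV1.3, best known from the embryonic brain) had a difference of 0.048 and was higher in 22 of 30 strains (limma adjusted p = 0.425).

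The strain F-test passed for 3 of 4 alpha subunits and for 88.3% of all genes. Scn1a was the exception (adjusted p = 0.0641 with P/J), and it passed without P/J (adjusted p = 0.0353). It had strain means from 12.11 in DBA/2J to 12.66 in NOR/LtJ. Its other 2 probe sets passed and ranked the strains alike (r of 0.71 and 0.68 with the brightest, adjusted permutation p = 0.00013 and 0.000325). The strain means of Scn8a ran from 12.86 in 129S1/SvImJ to 13.23 in BTBRT T(+) tf/J, a 1.30-fold range with an intraclass correlation (the share of variance that lies between strains) of 0.80. Those of Scn3a ran from 9.81 in LG/J to 10.52 in SWR/J, and those of Scn2a from 14.13 in CBA/J to 14.56 in FVB/NJ.

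Among the sodium channel genes, the beta subunits Scn2b and Scn3b had the highest F statistics over strains. All 3 beta genes passed the strain F-test, and all 3 had negative fluoxetine estimates that did not pass. Scn2b (a beta subunit that is linked to the alpha subunit by a disulfide bond) ran from 12.27 in NZB/BlNJ through 12.77 to 13.13 in CE/J in fluoxetine arrays, and from 12.31 in NZB/BlNJ through 12.83 to 13.16 in CE/J in water arrays. The same strains held both ends in both groups, and the largest within-strain difference, in C57BR/cdJ, was 0.19 in size. The F statistic over strains was 25.6 (adjusted p = 1.23e-13) with an intraclass correlation of 0.94. The largest gap in the strain means was 0.21 wide and left 7 strains below it: NZB/BlNJ, P/J, PL/J, AKR/J, MA/MyJ, FVB/NJ and BUB/BnJ, at 12.29 to 12.47. The other 23 strains lay at 12.68 to 13.15.

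A second probe set of Scn2b split the strains more widely. The same 7 strains had strain means of 2.41 to 3.46 there, near the lowest deposited value of 2.07, in all 14 arrays below 3.66. Another 4 strains, 129S1/SvImJ, LP/J, BTBRT T(+) tf/J and CE/J, had 5.62 to 7.75 on this probe set although their values on the brightest probe set were among the highest, at 12.98 to 13.15. The remaining 19 strains had 10.40 to 11.94. The strains thus formed separate clusters, and no correlation over all strains is read from them. The dimmest Scn2b probe set ranged from 4.53 to 5.78. The plot of both probe sets by strain shows these clusters.

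**Figure D2:**
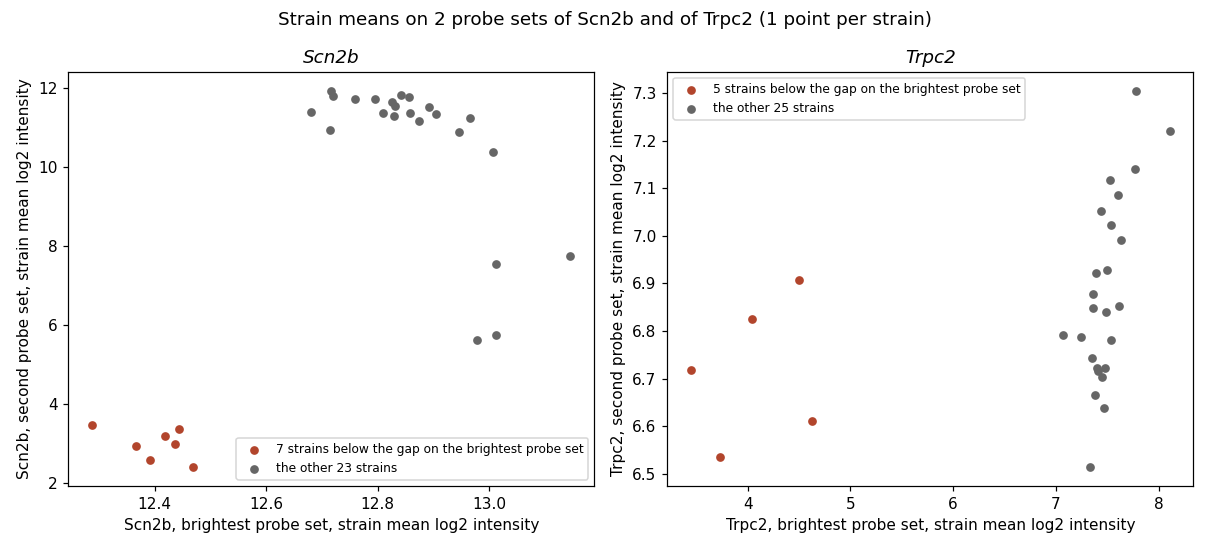
Strain means in log2 intensity on the brightest probe set (x axis) and the second probe set (y axis) of Scn2b (left) and Trpc2 (right), 1 point per strain; red points are the strains below the largest gap on the brightest probe set. The 7 red Scn2b strains are also lowest on the second probe set (2.41 to 3.46), whereas the 5 red Trpc2 strains lie within the range of the others there (6.53 to 6.91).

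Scn4b (the beta subunit tied to resurgent sodium current) had the lowest fluoxetine estimate of the 39 members, -0.18 (SE 0.085, limma adjusted p = 0.310), or -11.6%. Fluoxetine arrays ran from 7.65 in DBA/2J through 8.91 to 10.05 in NZB/BlNJ, and water arrays from 7.94 in C3H/HeJ through 9.13 to 10.05 in C57BR/cdJ. The groups overlapped nearly throughout, and only 16 of 30 strains were lower with fluoxetine. P/J had 8.34 in its fluoxetine array and 9.98 in its water array, and without P/J the estimate was -0.13. Strain means of Scn4b spanned 8.05 in C3H/HeJ to 9.96 in NZB/BlNJ, a 3.75-fold range (F = 4.69, adjusted p = 5.58e-05), and F was 6.92 without P/J. NZB/BlNJ, the lowest strain for Scn2b, was thus the highest for its neighbour Scn4b.

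Scn3b (a non-covalently bound beta subunit) had 11.55 in CBA/J to 12.05 in CE/J with a median of 11.79 in fluoxetine arrays, and 11.57 in CBA/J to 12.15 in CE/J with a median of 11.79 in water arrays. The same strains were lowest and highest in both groups, and the strain F-test passed (F = 9.53, adjusted p = 3.56e-08). The difference was -0.031 (SE 0.015), lower in 18 of 30 strains (limma adjusted p = 0.297). The second probe set of Scn3b had a difference of -0.16 (adjusted p = 0.452).

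**Figure D3:**
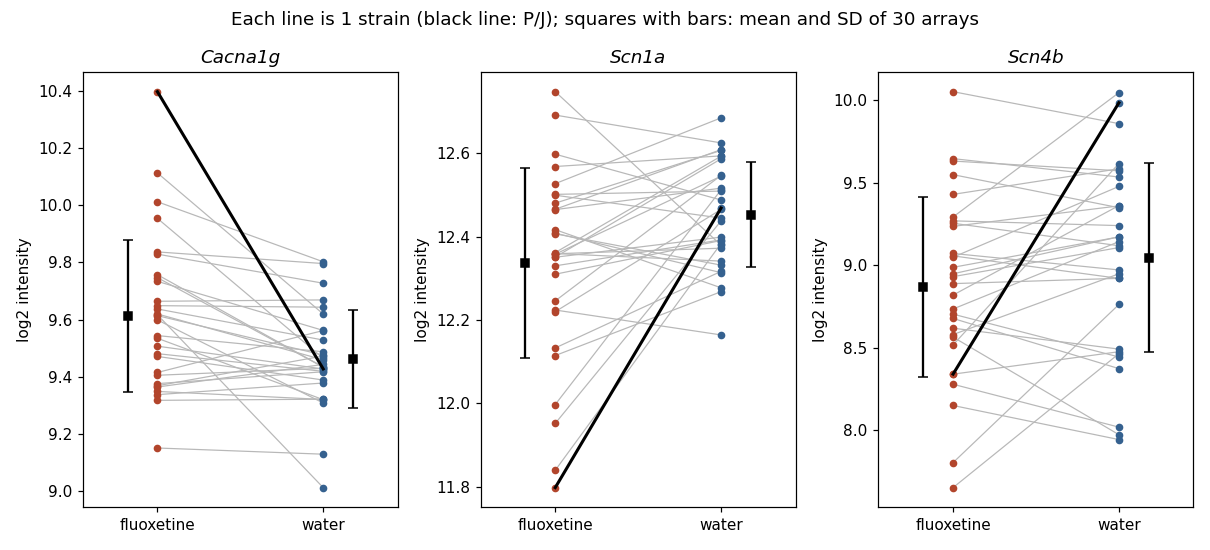
Log2 intensity of Cacna1g, Scn1a and Scn4b in every array, fluoxetine left and water right; each line joins the arrays of 1 strain, the black line is P/J, and squares with bars are the mean and SD of 30 arrays. The groups overlap for all 3 genes, and P/J has the steepest line in each panel.

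Of 7 calcium channel alpha1 subunits, 6 had positive and 1 a negative fluoxetine estimate, and 0 passed. Cacna1g (CaV3.1, a low-voltage-activated T-type channel known for burst firing in thalamus and cortex) was the member with the smallest p. Its fluoxetine arrays ran from 9.15 in 129S1/SvImJ through 9.61 to 10.40 in P/J, and its water arrays from 9.01 in C57BL/6J through 9.44 to 9.80 in C57BR/cdJ. The value was higher with fluoxetine in 22 of 30 strains, with a mean difference of 0.15 (SE 0.042), or 11.0%, and a limma adjusted p of 0.0904. The median of the within-strain differences was smaller, at 0.081. The largest were 0.97 in P/J, 0.61 in C57BL/6J, and 0.49 in both DBA/2J and C58/J. Without P/J the mean difference was 0.12 (limma adjusted p = 0.118), the smallest among the fits that left out 1 strain, and the median 0.080. Cacna1g had a single probe set, so no second one could be set beside it. Strain means ran from 9.14 in 129S1/SvImJ to 9.91 in P/J (F = 2.68, adjusted p = 0.00536), and F was 3.93 without P/J.

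The T-type relative Cacna1h (CaV3.2) had a difference of 0.016 (95% interval -0.032 to 0.063). Cacna1a (CaV2.1, the P/Q-type channel of presynaptic terminals) ran from 9.96 in CE/J through 10.17 to 10.51 in P/J in fluoxetine arrays and from 9.97 in RIIIS/J through 10.15 to 10.39 in 129S1/SvImJ in water arrays, with a difference of 0.018 (SE 0.022). Cacna1b (CaV2.2, the N-type presynaptic channel) ran from 11.55 in LG/J to 12.26 in BUB/BnJ with a median of 11.94 in fluoxetine arrays, and from 11.53 in C57BR/cdJ to 12.38 in 129S1/SvImJ with a median of 11.98 in water arrays. Its difference was -0.036 (SE 0.038), and its strain means spanned 1.69-fold from LG/J to 129S1/SvImJ. The groups overlapped for both presynaptic channels.

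Cacna1c (CaV1.2, the main L-type channel of brain) had 9.18 in FVB/NJ to 9.66 in CE/J with a median of 9.33 in fluoxetine arrays, and 9.00 in AKR/J to 9.65 in CE/J with a median of 9.30 in water arrays. Its difference was 0.039 (SE 0.023, limma adjusted p = 0.442). Cacna1e (CaV2.3, the R-type channel) ran from 11.94 in A/J to 12.27 in SM/J in fluoxetine arrays and from 11.95 in PL/J to 12.27 in CE/J in water arrays. It was among the steadiest members, with a difference of 0.0059 (95% interval -0.028 to 0.040) and a 1.19-fold range of strain means. Cacna1d (CaV1.3, an L-type channel that opens at lower voltage) had a difference of 0.020 (SE 0.027). All 7 alpha1 genes passed the strain F-test, with adjusted p up to 0.0161 for Cacna1a.

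None of the 3 alpha2delta genes passed for fluoxetine, and all 3 passed the strain F-test. Cacna2d1 (a binding site of gabapentinoid drugs) ran from 12.71 in SWR/J to 13.19 in P/J with a median of 12.94 in fluoxetine arrays, and from 12.74 in SWR/J to 13.17 in BUB/BnJ with a median of 12.97 in water arrays, a difference of -0.0096 (SE 0.017). The fifth probe set of Cacna2d1 by brightness had strain means from 3.12 in DBA/2J to 7.81, against 12.73 to 13.15 on the brightest. Cacna2d2 ran from 8.79 in NZB/BlNJ through 9.15 to 9.77 in DBA/2J in fluoxetine arrays and from 8.78 in RIIIS/J through 9.20 to 10.02 in CBA/J in water arrays. DBA/2J and CBA/J lay above all other strains, with strain means over a gap of 0.19 (F = 5.13, adjusted p = 2.41e-05). Cacna2d3 ran from 11.60 in SWR/J through 11.72 to 11.91 in P/J in fluoxetine arrays and from 11.46 in C57BL/6J through 11.67 to 11.99 in MRL/MpJ in water arrays. It was higher in 21 of 30 strains by 0.037 on average (limma adjusted p = 0.40).

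Among beta subunits, which bind the intracellular side of the pore, Cacnb2 had a difference of -0.039 (SE 0.019, limma adjusted p = 0.314) and was lower in 18 of 30 strains. Under the other settings it ran from -0.039 to -0.020. Its fluoxetine arrays ran from 8.83 in C58/J to 9.59 in CE/J and its water arrays from 8.84 in C58/J to 9.50 in AKR/J, with a median of 9.28 in both. C58/J was thus lowest in both groups. Cacnb4 (a beta subunit whose loss causes ataxia and seizures in lethargic mice) ran from 13.002 in DBA/2J through 13.41 to 13.62 in BALB/cJ in fluoxetine arrays and from 13.13 in LG/J through 13.44 to 13.71 in C57BL/6J in water arrays, with a difference of -0.020 (SE 0.025). The dimmest probe set of Cacnb4 had -0.093 and was lower in 20 strains (limma adjusted p = 0.212). Cacnb1 had a difference of 0.013 (SE 0.020). The strain F-test passed for all 3.

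Of the gamma genes, Cacng2 (stargazin, the founding AMPA receptor auxiliary subunit) had 10.55 in NZW/LacJ through 10.84 to 11.22 in SJL/J in fluoxetine arrays and 10.53 in NZW/LacJ through 10.85 to 11.02 in SJL/J in water arrays. The same strains held both ends in both groups, and the difference was 0.028 (SE 0.020). Its relatives Cacng3 and Cacng4 each had a difference of -0.031. Cacng8 ran from 4.18 to 4.71 in fluoxetine arrays and from 4.16 to 4.64 in water arrays, with BTBRT T(+) tf/J highest in both. However, 46 of 60 arrays lay within 0.02 of its median of 4.33, and the same held for 37 arrays of Trpc7 (median 5.08) and 36 of Cacng6 (median 4.35). Values on such a plateau were read as no measured level, and only arrays away from it carried information on these 3 genes. Several other members, among them Hcn2, Hcn3, Cacng4 and Trpm2, also repeated a single exact value. Of 60 arrays, 21 of Hcn2, 13 of Hcn3, 12 of Cacng4 and 10 of Trpm2 lay within 0.02 of their medians.

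Cacng6 (a gamma subunit known from muscle calcium channels) left its plateau in a few strains. Fluoxetine arrays ran from 4.23 in LP/J through 4.35 to 6.90 in C3H/HeJ, and water arrays from 4.34 in 129S1/SvImJ through 4.35 to 6.81 in CBA/J. CBA/J and C3H/HeJ had strain means of 6.68 and 6.77, and the other 28 strains 4.28 to 5.23, with P/J the highest of them. The gap was 1.451 wide, against a largest within-strain difference of 0.67 in BALB/cJ (F = 42.2, adjusted p = 1.24e-16, intraclass correlation 0.95). Cacng5 (an AMPA receptor auxiliary subunit of the second type) ran from 4.63 in C57BL/6J through 5.55 to 6.79 in I/LnJ in fluoxetine arrays and from 4.95 in C57BLKS/J through 5.32 to 7.93 in P/J in water arrays. BUB/BnJ and P/J were highest by strain mean, at 6.70 and 7.02. The BUB/BnJ arrays lay close together, whereas P/J had 6.10 in its fluoxetine array and 7.93 in its water array. The F statistic of Cacng5 was 3.92 with P/J and 4.95 without it (adjusted p = 0.000275 and 4.23e-05).

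The 2 HCN genes both passed the strain F-test and neither passed for fluoxetine. Hcn2 (fast-gated and strongly sensitive to cyclic AMP) ran from 8.10 in C58/J to 8.66 in LG/J in fluoxetine arrays. In water arrays it ran from 8.17 in RIIIS/J to 8.72 in FVB/NJ. Its difference was -0.011 (95% interval -0.047 to 0.026). The median was 8.50 in both groups, which is the value that Hcn2 repeated, so the equal medians say little. Hcn3 ran from 7.43 in A/J through 7.85 to 8.35 in LG/J in fluoxetine arrays and from 7.29 in 129S1/SvImJ through 7.82 to 8.24 in LG/J in water arrays. The water median of 7.82 was a value that Hcn3 repeated. Hcn3 was higher in 20 of 30 strains by 0.069 (SE 0.035, limma adjusted p = 0.342). LG/J was highest in both groups, and the strain means spanned 1.72-fold (F = 3.82, adjusted p = 0.000343). Hcn3 overlaps Pklr in the RefSeq annotation, so the probes of either gene may share sequence. Trpc5 overlaps Trpc5os there, and Trpc2, Trpc4ap, Cacna1c, Cacna1d, Cacna1h, Cacna2d3 and Cacnb1 also overlap other protein-coding genes. Whether any probes lie in shared sequence was not tested.

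Trpc2 had the widest strain range of all members. It encodes the cation channel of pheromone-sensing vomeronasal neurons in mice and is a pseudogene in humans. Fluoxetine arrays ran from 3.63 in C3H/HeJ through 7.37 to 8.20 in NZB/BlNJ, and water arrays from 3.18 in CBA/J through 7.46 to 8.02 in NZB/BlNJ. In both groups I/LnJ, CBA/J, C3H/HeJ, DBA/2J and P/J were the 5 low strains, with arrays between 3.18 and 4.97, while all arrays of the other 25 strains lay at 7.01 to 8.20. The gap between strain means was 2.44 wide, against a largest within-strain difference of 1.10 in CBA/J (F = 53.0, adjusted p = 5.15e-18, intraclass correlation 0.96). The lowest strain means lay below the intensity minimum of 4, so no fold is given for this range. Fluoxetine arrays differed from water arrays by 0.040 (SE 0.066), higher in 15 and lower in 15 strains.

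The second Trpc2 probe set did not show this split. There the 5 low strains had strain means of 6.53 to 6.91 and the other 25 had 6.51 to 7.30, so the clusters overlapped. RefSeq places Trpc2 over Xntrpc and Xndc1, and which of these transcripts each probe set reads was not tested. Trpc2 was also the member nearest to the intensity minimum, with 56 of 60 arrays at or above 4, while all other members reached it in 60 arrays. Cacna2d4, just outside, reached it in 2 arrays with a highest value of 4.04. The other genes below the minimum were Cacna1f, Cacna1s, Cacng1, Cacng7, Scn9a, Scn10a, Scn11a, Trpm1, Trpm5, Trpm6 and Trpm8, several of which are known from muscle, retina or sensory neurons.

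Trpc5 and Trpc6 also varied between strains. Trpc5 (a channel opened by receptors coupled to phospholipase C) ran from 6.13 in P/J through 7.26 to 8.66 in NZB/BlNJ in fluoxetine arrays and from 7.03 in SJL/J through 7.30 to 8.67 in NZB/BlNJ in water arrays. NZB/BlNJ stood alone at the top in both groups, and P/J had 6.13 in its fluoxetine array and 7.14 in its water array. The F statistic was 4.72 (adjusted p = 5.24e-05) with all strains, 2.11 (adjusted p = 0.0273) without NZB/BlNJ and 5.75 (adjusted p = 1.06e-05) without P/J. Trpc6 (opened by diacylglycerol) ran from 7.41 in LG/J through 8.20 to 9.12 in RIIIS/J in fluoxetine arrays and from 7.38 in LP/J through 8.18 to 8.68 in RIIIS/J in water arrays. LG/J, LP/J and NZB/BlNJ lay below all other strains by a gap of 0.26 (F = 5.14, adjusted p = 2.38e-05). Trpc4, the closest relative of Trpc5, had 8.22 in A/J through 8.63 to 8.96 in MA/MyJ in fluoxetine arrays and 8.34 in C57BL/6J through 8.57 to 8.90 in CE/J in water arrays. It was higher in 20 of 30 strains by 0.040 (SE 0.024, limma adjusted p = 0.459). Trpc1 differed by -0.0049 (95% interval -0.037 to 0.027) and Trpc4ap by -0.0083 (95% interval -0.052 to 0.035). Trpc7 differed by -0.015 and missed the strain threshold with and without P/J (adjusted p = 0.103 and 0.0715).

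The 4 TRPM genes all had negative fluoxetine estimates between -0.062 and -0.027, none of which passed. Trpm2 (a channel opened by ADP-ribose under oxidative stress) had 7.06 in C58/J through 7.85 to 8.21 in LG/J in fluoxetine arrays and 7.59 in BALB/cJ through 7.85 to 8.26 in LG/J in water arrays. The mean difference was -0.062, with lower values in 20 of 30 strains (limma adjusted p = 0.348), and C58/J had the largest difference at -0.65. Without C58/J the estimate was -0.042. The equal medians of 7.85 were the value that Trpm2 repeated, so they say little. Trpm4 (a calcium-activated channel for monovalent cations) had -0.059 and missed the strain threshold with P/J (adjusted p = 0.0577) but not without it (adjusted p = 0.0166), and Trpm7 (a channel fused to a kinase, tied to magnesium balance) had -0.027.

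Trpm3 (a heat- and steroid-sensitive channel) ran from 7.59 in DBA/2J through 8.71 to 9.52 in NOR/LtJ in fluoxetine arrays and from 7.90 in I/LnJ through 8.80 to 9.53 in LP/J in water arrays. DBA/2J, P/J and I/LnJ were the lowest strains by mean, at 7.88 to 8.05, and FVB/NJ the highest at 9.38 (F = 8.49, adjusted p = 1.34e-07). Unlike Trpc2, its second probe set ranked the strains alike (r = 0.89, rho = 0.90, adjusted permutation p = 0.00013 for r) and spanned 7.03 in I/LnJ to 9.10 in LP/J. That correlation was 0.87 without the 2 strains farthest from the median. Between the groups Trpm3 differed by -0.032 (SE 0.050).

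Over all members, 36 of 39 (92.3%) passed the strain F-test, against 88.3% of all genes, and the 3 that did not were Scn1a, Trpc7 and Trpm4. Without P/J 38 of 39 passed, against 89.6% of all genes, and Trpc7 alone did not. The intraclass correlation, the agreement within a strain, had a median of 0.62 over members and 0.59 over all genes, and the median SD of strain means 0.14 and 0.16. By probe-set intensity, channel genes thus varied between strains about as much as other genes of these arrays. Probe sequences were not at hand. Whether sequence differences between strains under the probes play a part, for instance in the Trpc2, Scn2b or Cacng6 splits, was not tested. An intraclass correlation above 0.9 was found for 3 of 39 members, Trpc2, Cacng6 and Scn2b, and for 675 of all 11886 genes. That of Cacng6 rests on the arrays away from its plateau, on which 36 of 60 arrays lay. LG/J had the highest strain mean in 6 of 39 members and in 10.3% of all genes, CE/J in 5 members and 8.19%, and P/J in 5 members and 6.7%. The largest within-strain difference in absolute size lay in P/J for 8 of 39 members (20.5%): Cacna1a, Cacna1g, Cacna2d3, Cacng5, Scn1a, Scn4b, Trpc5 and Trpm4. P/J held it for 18.9% of all genes too, so the members' share was near the background. The plot of all arrays of the most variable members shows these strain differences.

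**Figure D4:**
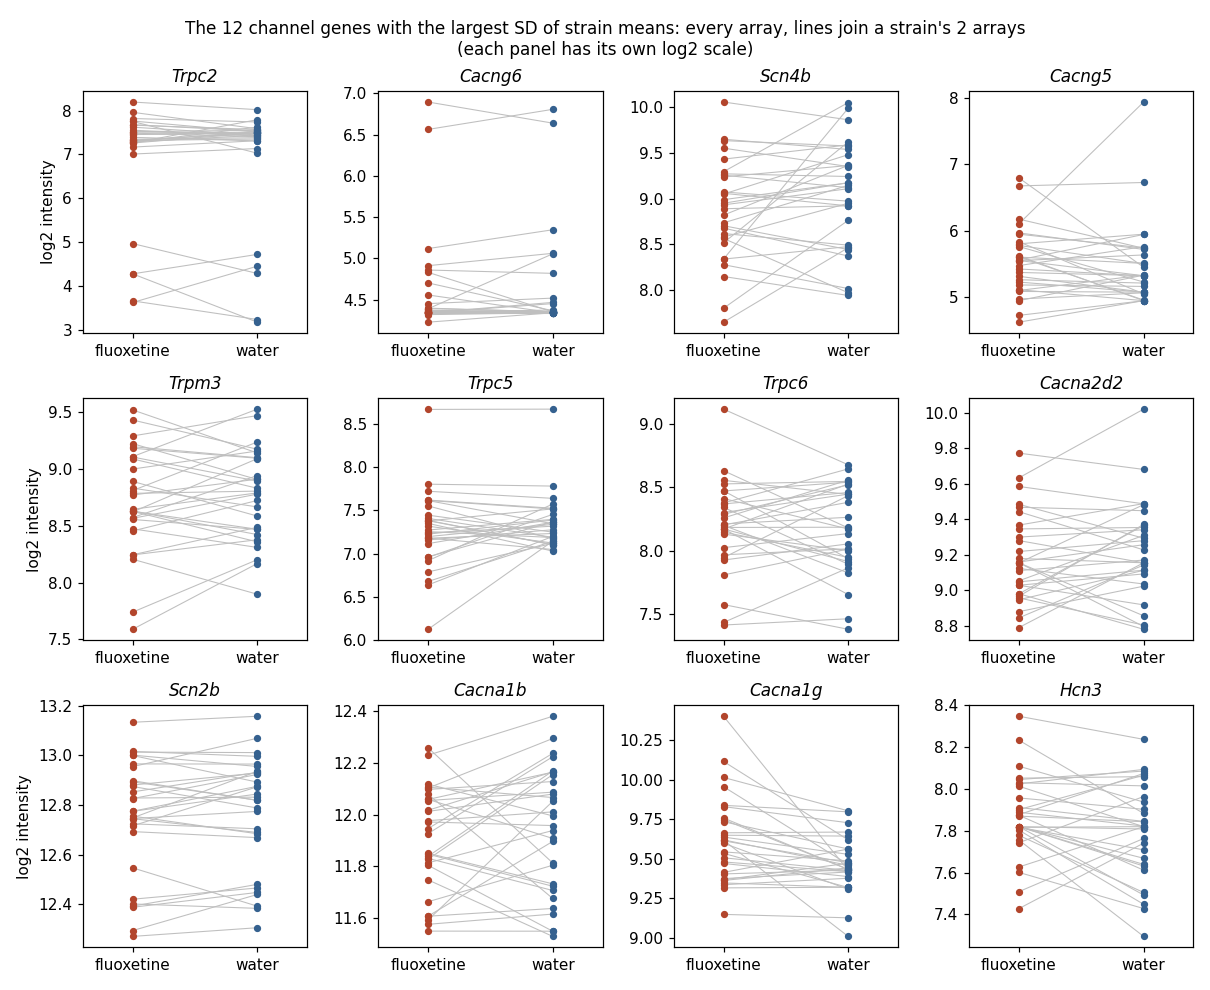
Log2 intensity in every array for the 12 members with the largest SD of strain means, fluoxetine left and water right in each panel, with lines joining the arrays of 1 strain; each panel has its own scale. Trpc2 (5 low strains) and Cacng6 (2 high strains) show separate clusters that are the same in both groups, and Cacna1g and Cacna1b show continuous ranges.

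Second probe sets gave a mixed picture. Of 39 further probe sets that passed the minimum, in 20 members, 28 had a positive correlation of strain means with the brightest probe set of the same gene. Over 30 strains, 12 of these passed a permutation test with Benjamini-Hochberg adjustment over 39, all positive, the clustered Scn2b among them. The correlations ran from -0.35 to 0.93 with a median of 0.21. None of the 39 passed for fluoxetine (lowest limma adjusted p = 0.104), and 35 passed the strain F-test. The shares among all 21631 probe sets tested were not computed, so neither count is read against a background. The highest correlation was that of Cacna1b (0.93), and another probe set of the same gene gave the lowest. Strain orders of single genes therefore depend on the probe set except where a second one was shown to rank the strains alike. In 10 members the gene had a single probe set, among them Cacna1g, Scn4b, Trpc5, Trpc6, Hcn2 and Hcn3.

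Co-variation was tested for 13 pairs of members, or of a member and a marker, over 30 strain means (two-sided permutation tests with 100000 resamples, adjusted over the 13). None passed. The highest was Scn8a with Scn4b at r = 0.43 (rho 0.42, raw permutation p = 0.0186, adjusted 0.151), and r was 0.38 without the 2 strains farthest from the median. Scn1a with the interneuron gene Pvalb followed at r = 0.39 (rho 0.40, raw permutation p = 0.0317, adjusted 0.151; 0.42 without 2 strains), and Scn2a with Scn3a at r = 0.38 (rho 0.40, adjusted permutation p = 0.151). Cacna1a with Cacnb4, which assemble in P/Q-type channels, had r = -0.30 (rho -0.20), which was -0.074 without P/J and DBA/2J. Scn4b with the striatum markers had r = 0.077, and Cacna1g with the thalamus markers 0.11. Within the fluoxetine arrays alone, Scn1a with Pvalb reached r = 0.52 (rho 0.59) and Scn8a with Scn4b r = 0.50 (rho 0.61), both at an adjusted permutation p of 0.0316. For the same pairs, water arrays alone gave r = 0.19 (rho 0.10) and r = 0.33 (rho 0.30). Strain means taken from the mean of all probe sets gave r = 0.19 and r = 0.41. In the water arrays alone no pair passed by r, while Scn2a with Scn3a passed by rho (r = 0.51, adjusted permutation p = 0.0517; rho 0.57, adjusted 0.0156). Whether the groups differ in these correlations was not tested. The strains share ancestry, so they are not fully independent, and permutation tests over strains do not allow for this.

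The within-strain differences of Cacna1g, Scn1a and Scn4b were set beside those of 13 marker lists, a check chosen after the values were seen. Of 39 such relations, 3 passed by Pearson's r (two-sided permutation tests, Benjamini-Hochberg over 39) and 0 by Spearman's rho. Cacna1g went with the microglia score at r = 0.63 (adjusted permutation p = 0.0159; rho 0.36, adjusted 0.334), and r was 0.44 without P/J and C57BL/6J. Scn1a went against the microglia score at r = -0.58 (adjusted permutation p = 0.0159; rho -0.27), and r was -0.23 without P/J and DBA/2J. Both relations thus rested in large part on those strains. Scn4b went with the oligodendrocyte score at r = 0.57 (adjusted permutation p = 0.0159; rho 0.52, adjusted 0.0760), and r was 0.48 without P/J and I/LnJ. Scn1a with the interneuron score of 8 markers, Pvalb among them, did not pass (r = 0.26, adjusted permutation p = 0.289, rho 0.14). All 7 tested oligodendrocyte markers had negative fluoxetine estimates (median -0.22, 0 past the adjusted threshold), and their summed intensity was lower with fluoxetine in 21 of 30 strains, at 22889 to 54573 over fluoxetine arrays and 32512 to 52512 over water arrays. The part of these markers in the estimates of Scn4b, Scn1a and Cacna1g was not tested.

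**Figure D5:**
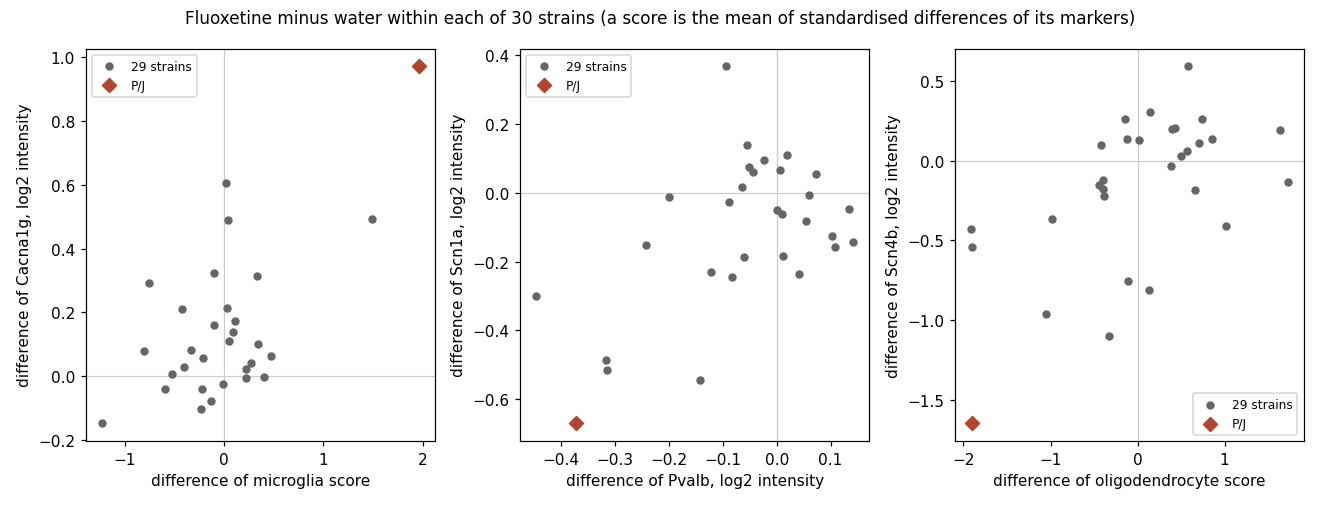
Within-strain differences, fluoxetine minus water, of Cacna1g against the microglia score, Scn1a against Pvalb and Scn4b against the oligodendrocyte score; 1 point per strain, P/J as a diamond, and a score is the mean of the standardised differences of its markers. P/J lies at or near the extreme of both axes in all 3 panels. Pvalb is 1 of the 8 markers of the interneuron score, with which Scn1a had r = 0.26.

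Partner genes of the channels were read in the same fit. Of 49 listed partner genes, 44 had a probe set of their own and 41 were tested, and 0 passed for fluoxetine. Without adjustment 4 were higher and 7 lower, together 26.8% of the 41 against 15.3% of all genes. The strain F-test was passed by 36 of 41 (87.8%), against 88.3% of all genes. Among sodium channel partners, Nfasc (neurofascin, of the axon initial segment) had a difference of 0.094, higher in 21 of 30 strains (limma adjusted p = 0.182), and Fgf14 (an intracellular modulator of sodium channels) -0.11, lower in 20 (adjusted p = 0.197). Fgf14 had strain means from 9.17 in C57BR/cdJ to 12.12 in 129S1/SvImJ, around a median of 11.76. Scnm1, a splicing factor known to modify Scn8a disease in mice, spanned 7.53 in SJL/J to 8.48 in C57BR/cdJ.

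Of the calcium channel partners, Rimbp2 (which ties presynaptic calcium channels to the release site) had the smallest p, with a difference of 0.20 that was positive in 21 of 30 strains (SE 0.054, limma adjusted p = 0.0874). Rims1, another active zone scaffold, had -0.050, lower in 22 strains (adjusted p = 0.175). Stac2 ranged from 8.96 in 129S1/SvImJ to 10.35 in LG/J by strain mean, and Akap5 (an anchor of kinases at L-type channels) from 10.54 in CE/J to 11.51 in FVB/NJ. The 6 tested HCN partners all had positive estimates, of 0.0027 to 0.061, and none passed. Of these, Pex5l (TRIP8b, which controls HCN trafficking) ranged from 9.14 in SWR/J to 10.31 in C57BR/cdJ, Flna from 8.79 in SM/J to 9.69 in C3H/HeJ, Ythdf3 had a difference of 0.061 and Nedd4 one of 0.022. Among TRP partners, Plcb4 (a phospholipase C upstream of TRPC channels) had -0.11, lower in 19 strains (limma adjusted p = 0.151). Orai1, the pore of store-operated calcium entry, had 0.22, higher in 19 (adjusted p = 0.158), at strain means of 3.86 to 4.84. Plcb1 ranged from 12.09 in DBA/2J to 12.88 in NZB/BlNJ with an intraclass correlation of 0.92.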

How the data were processed

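The authors deposited a linear intensity for each probe set and array. The submitters' processing notes name GCRMA, whose version is not given in the sources used here. This method removes a background predicted from probe sequence, quantile-normalizes the arrays and combines the probes of a set. Dim probe sets can then share nearly 1 value. They were taken to log2 without a pseudocount. Of 45101 probe sets, 34945 were paired with 1 gene and 932 with several, which were not used. Each gene was read from its brightest probe set, and genes at log2 4 or more in at least 6 arrays were tested. Fluoxetine and water were compared with limma 3.58.1 in R 4.3.3 over all 11886 genes, with strain as a block and two-sided Benjamini-Hochberg adjustment at 0.05. The strain F-test came from the same fit. The fit was checked on simulated data. The strain block came from the strain labels: the arrays of 30 of 30 strains correlated best with the other array of their own strain (0.519 to 0.855).

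Members and lists were chosen with earlier results of these data known. Array values were named by rule: the 8 members with the smallest p for fluoxetine, the 12 with the largest SD of strain means among those past the F-test, a fixed set, and of each partner list the 2 with the smallest p and the 2 with the largest SD. Alternatives were other probe sets, filters and normalizations, an offset, a trend in the prior variance, no block, and each strain left out. No source used here gives scan batches. With pooled RNA and 1 array per strain and treatment, fluoxetine p-values measure the spread of within-strain differences, which includes differences between pools and arrays. The strain F-test sets strain differences against the spread between arrays of the same strain, which differ in treatment. Permutation tests treat the strains as exchangeable, although they share ancestry. The number of arrays limits the precision.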

Additional observations from a re-analysis of the deposited data

How the results depend on the processing

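No member passed for fluoxetine under any of the 9 other settings or in any of the 30 fits that left out 1 strain, where the count was 0 throughout (lowest limma adjusted p = 0.0675, for Cacna1g without BUB/BnJ). Few genes of any kind passed: 0 to 9 of all genes tested under the other settings, and 0 to 21 with 1 strain left out. A count of 0 members is therefore not particular to channel genes. In the paired design, the fit with no replicate block also gave 0 members, and the count with an unadjusted p under 0.05 was 2 there against 5 with the block. With 1 strain left out that count ran from 2 (without I/LnJ) to 7 (without SWR/J). It also came to 2 without LG/J and to 3 without 129S1/SvImJ, DBA/2J or SM/J. Members past the strain F-test numbered 26 to 38 under other settings. The 26 were of the 30 members tested with the second brightest probe set, where 8636 of all 10123 genes passed. With 1 strain left out 35 to 38 members passed, 38 of them without P/J, where Scn1a and Trpm4 also passed. Of the planned pairs 0 passed over strain means, while 2 passed in the fluoxetine arrays alone. For within-strain differences, a setting chosen after seeing the data, 2 passed by r. They were Scn1a with Pvalb (r = 0.54) and Cacng4 with the oligodendrocyte precursor score (r = 0.53), with rho of 0.35 and 0.43 not past. Without the 2 strains farthest from the median, r was 0.44 for Scn1a with Pvalb and 0.41 for the Cacng4 pair. In the water arrays alone 0 passed by r and Scn2a with Scn3a passed by rho (0.57, adjusted permutation p = 0.0156). The correlation of Cacna2d1 with Cacna2d3 reversed to -0.24 with the mean of all probe sets, against 0.36 with the brightest. The cause was not tested. Low intensities limit Cacng6, Cacng8 and Trpc7, and repeated values limit other members, among them Hcn2, Hcn3, Cacng4 and Trpm2.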
